A study of Vitis vinifera with 171 samples.

Results

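Alpha-expansins of the ripening grapevine berry were followed over a field survey of Corvina: EXPA8 (VIT_13s0067g02930), annotated as an expansin of a Vitis labrusca x Vitis vinifera hybrid, and VIT_17s0053g00990, annotated as an alpha-expansin 1 precursor and written EXPA1 here. They are 2 of the 29542 probe sets rebuilt from the arrays. The deposited values carry probe numbers but no gene names. Each gene was therefore found by correlating the sample values printed for it in the supplementary datasets of the study with a summary of 4 neighbouring probes. That summary was a median polish of their log2 intensities, not the average used for the levels below. The best probe set reached r = 0.9991 for EXPA8, with the next at 0.8060, and r = 0.9997 for EXPA1. The next probe set for EXPA1 reached 0.9773, so the lead over the runner-up was required as well as a high r. EXPA8 was matched on 33 printed array values of harvest. EXPA1 was matched on 12 printed means of veraison, and there the r of 0.9997 held after the columns headed MN and PSP for 2007 were exchanged. As headed it was 0.8668. The sheet in question holds 39 genes, EXPA8 among them, although of the 2 genes it gave an accepted match for EXPA1 alone. Set against the labels of the arrays, its 2 columns stand under each other's name. In the sheets of 45 and 168 genes of the same dataset, the arrays labelled MN for 2007 also matched the column headed PSP. Only the largest sheet, with 373 genes, followed those labels as headed, so the printed sheets disagree on this assignment. Levels are therefore assigned by the array labels, and the values given for MN at 2007 veraison are those of the arrays labelled MN. Probe numbers run along the chromosomes, and all 10 identified genes near the EXPA8 probes lay on its chromosome, as did all 11 identified genes near the EXPA1 probes.

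The 171 single-colour arrays held total RNA of berry pericarp, that is, berries without seeds, of Vitis vinifera cultivar Corvina, which was 1 clone in every vineyard. Berries were collected at veraison (the onset of ripening), mid-ripening and harvest, in 3 biological replicates (A, B and C) for each of 57 combinations of vineyard, stage and year. In 2008 all 11 vineyards were sampled: BA, CS, GIV and VM in the Bardolino area, AM, CC and PM in the Soave area, and BM, FA, MN and PSP in the Valpolicella area. The vineyards AM, CS, MN and PSP were also sampled in 2007 and 2006. Vineyards differed in soil, altitude, training system and rootstock, which cannot be told apart from the vineyard itself. The replicates of a combination came from the same vineyard on the same occasion, so their spread measures variation within it. Fewer cells of a type and less RNA per cell cannot be told apart in such whole-pericarp RNA.

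Expansins are small secreted wall proteins that loosen the plant cell wall without cutting its polymers, by releasing the non-covalent contacts between cellulose microfibrils and the xyloglucans that coat them. They act best in an acidic wall and are known for their part in cell enlargement. Alpha-expansins (EXPA) are the larger of the main subfamilies, and ripening members of tomato, strawberry and grape accumulate while the fruit softens. In the grape berry, softening and the second phase of enlargement both begin around veraison.

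Levels are on the log2 scale, taken after averaging the intensities of the 4 probes of a gene, and a difference of 1 on that scale is a change of 2-fold in intensity. Levels of the different genes cannot be set against each other, because each probe has its own brightness, so the genes are compared only by how their levels changed. EXPA8 lay above the 95th percentile of the random-sequence probes of its own array in 171 of 171 arrays, by a median of 8.04 on the log2 scale, and EXPA1 did so in 171 of 171 arrays by a median of 5.10. EXPA8 was among the brightest probe sets on the arrays, at percentile 99.8 of all probe sets in the median array. The brightest EXPA8 probe reached an intensity of 59838.7 in its highest array, where the brightest gene probe of any array had 63131.3. Whether that ceiling narrows the differences of EXPA8 was not tested. The 4 probes of EXPA8 correlated with each other at r = 0.81 to 0.92 over the arrays, and those of EXPA1 at 0.70 to 0.89. Hybridisation of close relatives to these probes was not checked here, although the methods of the study state that the specificity of probe sets in gene families was assessed.

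In the 2008 season EXPA8 was highest at veraison and fell by a small amount at each later stage. At veraison the 11 vineyard means had a lowest value of 15.11 (PM), a median of 15.23 and a highest of 15.41 (BA). At mid-ripening they had a lowest of 14.89 (GIV), a median of 15.04 and a highest of 15.13 (BA). At harvest they spread from 14.26 (GIV) to 15.22 (PM) with a median of 14.94. The vineyard means of veraison and mid-ripening thus overlapped only at the edge, whereas those of harvest reached both above and below mid-ripening.

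**Figure D1:**
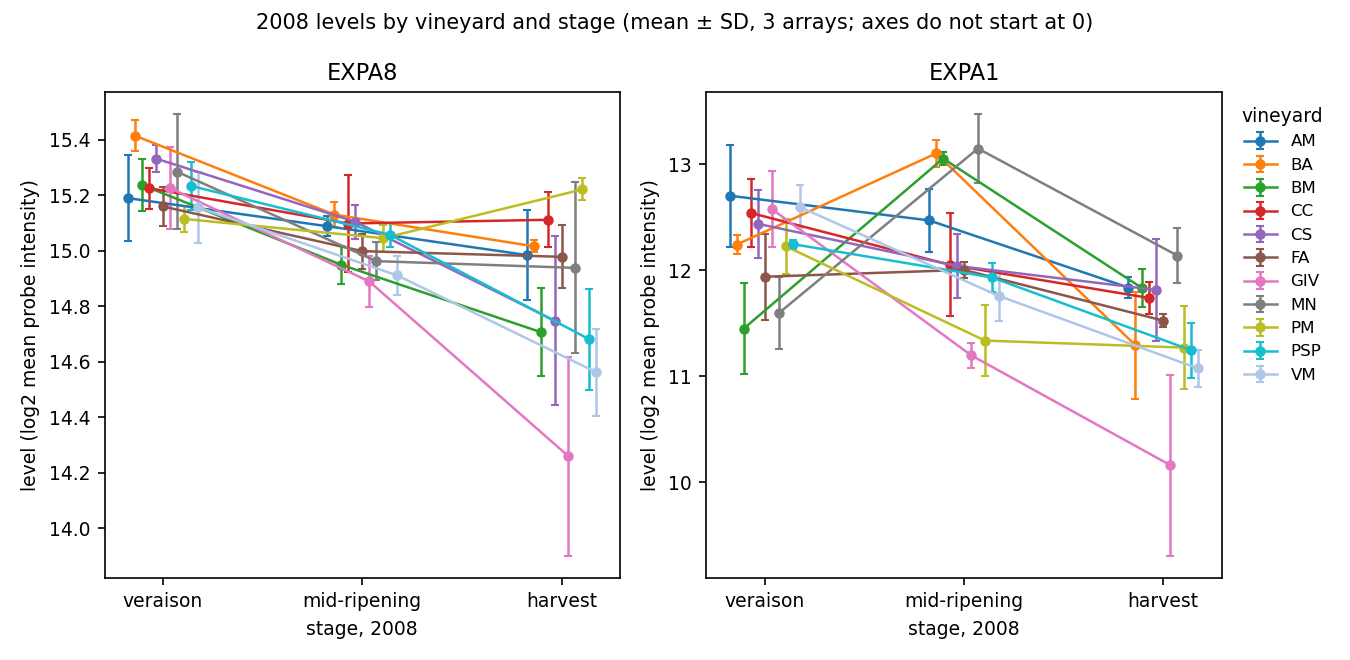
Levels of EXPA8 and EXPA1 (y axis, log2 of mean probe intensity) in each of the 11 vineyards of 2008 at veraison, mid-ripening and harvest (x axis). Points are means of 3 arrays and bars are SD. EXPA8 stayed between 14.26 and 15.41 in every vineyard, whereas EXPA1 crossed between vineyards and reached its lowest value, 10.16, at harvest in GIV.

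EXPA8 fell by 0.21 ± 0.07 (SE) between veraison and mid-ripening, which is 1.16-fold (limma, 11 vineyards, adjusted p = 0.0180). The mid-ripening level was lower in 11 of 11 vineyards, with single steps between -0.34 (GIV) and -0.07 (PM). In 9 of 11 vineyards every mid-ripening array lay below every veraison array, the exceptions being AM and CC. Of all 29542 probe sets, 47% passed the same test and 23.5% did so downwards, so a fall at this step was common. Between mid-ripening and harvest EXPA8 fell by a further 0.18 ± 0.07 (adjusted p = 0.0465; 36.8% of all probe sets passed, 18.1% downwards). It was lower in 9 of 11 vineyards, with the deepest step of -0.63 in GIV, while CC at +0.01 and PM at +0.18 did not decrease. This second step stood close to the threshold. It did not pass without VM, BM, GIV, MN, CS, PSP, BA, AM, replicate B or replicate C, and over all omissions of 1 vineyard or letter it lay between -0.22 and -0.14, with adjusted p-values of 0.0133 to 0.114. Over the 7 vineyards sampled in 2008 alone neither step passed, at -0.22 and -0.17, and from probe 3 alone the first did not (-0.11, adjusted p = 0.224). The study chose both genes for a difference between years on veraison arrays that included those of AM, CS, MN and PSP in 2008. The 7 vineyards leave these out, and the tests over 11 vineyards do not. Over the whole course from veraison to harvest EXPA8 fell by 0.40 ± 0.07, or 1.32-fold (adjusted p = 5.06e-05; 57.3% of all probe sets passed, 28.2% downwards).

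EXPA1 had no common direction from veraison to mid-ripening of 2008 and then fell. At veraison its vineyard means had a lowest value of 11.45 (BM), a median of 12.25 and a highest of 12.70 (AM). At mid-ripening the lowest was 11.20 (GIV), the median 12.04 and the highest 13.15 (MN). At harvest the lowest was 10.16 (GIV), the median 11.52 and the highest 12.14 (MN). The vineyards that were low at veraison, MN and BM, were thus among the highest at mid-ripening.

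Between veraison and mid-ripening the mean step of EXPA1 was -0.04 ± 0.23 (SE, adjusted p = 0.893), which did not pass the test, and the sign of this mean turned when GIV, VM, PM, CC or replicate B was left out (0.09 without GIV). The single vineyards spread far to both sides of 0. BM had arrays of 13.11, 13.06 and 12.98 at mid-ripening, against 10.98, 11.83 and 11.54 at veraison. MN had 12.81, 13.46 and 13.17 at mid-ripening, against 11.20, 11.81 and 11.77 at veraison. In both, and in BA, all 3 mid-ripening arrays lay above all 3 veraison arrays, with steps of +1.60 in BM (3.04-fold), +1.55 in MN (2.93-fold) and +0.86 in BA (1.81-fold). GIV went the other way, with arrays of 11.32, 11.20 and 11.08 at mid-ripening, against 12.58, 12.93 and 12.22 at veraison. The GIV step was -1.38 (2.60-fold lower). In PM, VM and PSP, with steps of -0.89, -0.84 and -0.31, all mid-ripening arrays also lay below all veraison arrays. In AM, CC, CS and FA the arrays of the 2 stages overlapped.

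From mid-ripening to harvest EXPA1 was lower in 11 of 11 vineyards and fell by 0.74 ± 0.23, or 1.67-fold (adjusted p = 0.0118). The deepest step was -1.81 in BA, where the harvest arrays held 10.84, 11.84 and 11.21 against 13.24, 12.99 and 13.08 at mid-ripening. The smallest was -0.07 in PM, where the arrays of both stages overlapped, as they did in CC and CS. In the other 8 vineyards every harvest array lay below every mid-ripening array. Over the whole course EXPA1 fell by 0.78 ± 0.23 (1.72-fold, adjusted p = 0.00491), although BM and MN ended at +0.38 and +0.54 above their own veraison levels. Over the 7 vineyards sampled in 2008 alone, the mid-ripening to harvest step was -0.80 with an adjusted p of 0.0696.

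**Figure D2:**
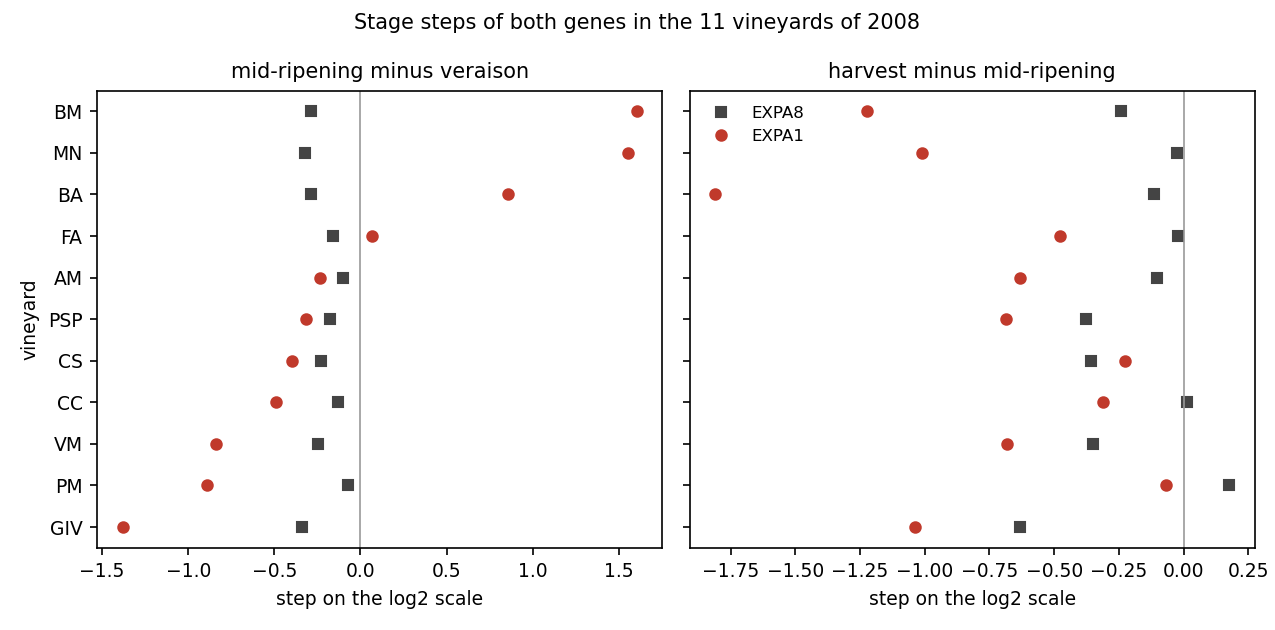
Change of level (x axis, log2) of EXPA8 and EXPA1 in each of the 11 vineyards of 2008 (y axis), from veraison to mid-ripening and from mid-ripening to harvest. Each point is 1 vineyard, the difference of 2 means of 3 arrays. The EXPA1 steps ran from -1.38 to +1.60 at the first step and from -1.81 to -0.07 at the second, while those of EXPA8 stayed between -0.63 and +0.18.

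The steps of the 2 genes were compared within vineyards. From mid-ripening to harvest the EXPA8 step exceeded the EXPA1 step by 0.56 ± 0.49 (SD, n = 11), and it was the higher one in 10 of 11 vineyards (exact two-sided permutation test by sign flips, p = 0.00195, where the smallest possible value was 0.000977). The exception was CS, with a step of -0.36 for EXPA8 and -0.23 for EXPA1. EXPA8 was among the brightest probe sets, and whether the intensity ceiling narrowed its steps against those of EXPA1 was not tested. The harvest arrays in this comparison are also those on which the study chose EXPA8 for differences between vineyards. The comparison is thus not independent of that choice. From veraison to mid-ripening the difference of steps was -0.17 ± 1.02 (SD, n = 11, exact permutation p = 0.590), with EXPA8 the higher one in 7 vineyards.

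EXPA1 differed between vineyards at every stage of 2008. Its vineyard means spanned 1.25 at veraison (limma F test over single arrays, adjusted p = 0.00198), 1.95 at mid-ripening (adjusted p = 7.08e-08) and 1.98 at harvest (adjusted p = 0.000375). Such differences were the rule on these arrays, since 63.9%, 68.5% and 74.8% of all probe sets passed at the 3 stages. The mid-ripening order had MN (13.15 ± 0.32), BA (13.10 ± 0.13) and BM (13.05 ± 0.06; SD, n = 3 each) at the top, followed by AM at 12.47 ± 0.30, and PM (11.34 ± 0.33) and GIV (11.20 ± 0.12) at the bottom. BM stood above AM, and VM (11.76 ± 0.24) above PM, by more than the larger SD of each pair, and the other 8 of the 10 neighbours in that order did not differ beyond it. At veraison none of the 10 neighbouring pairs did, so the order there was a gradient. At harvest GIV stood apart at the bottom with 9.33, 10.11 and 11.04 in its arrays, which themselves spread widely, below VM at 11.07 ± 0.17. The test at veraison gave an adjusted p of 0.141 without replicate A and 0.115 from probe 2 alone, and the harvest test 0.0555 without replicate A. The order of the vineyards changed between stages. A Kruskal-Wallis permutation test with the 3 stage means as replicates did not pass (p = 0.889 for EXPA1 and 0.928 for EXPA8). It counts the change between stages as spread within a vineyard, so it cannot judge vineyard differences at a stage.

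The EXPA8 means of the 11 vineyards lay closer together until harvest. They spanned 0.30 at veraison (adjusted p = 0.348) and 0.24 at mid-ripening (adjusted p = 0.0988), neither of which passed the test. At harvest they spanned 0.96 (adjusted p = 0.00100), from PM with arrays of 15.20, 15.20 and 15.27 to GIV with 14.20, 13.93 and 14.64. The order at harvest was PM (15.22 ± 0.04), CC (15.11 ± 0.10), BA (15.02 ± 0.02), AM (14.98 ± 0.16), FA (14.98 ± 0.11), MN (14.94 ± 0.31), CS (14.75 ± 0.30), BM (14.71 ± 0.16), PSP (14.68 ± 0.18), VM (14.56 ± 0.16) and GIV (14.26 ± 0.36; SD, n = 3 each). Of those 10 neighbouring pairs, PM over CC was the one apart by more than the larger SD. EXPA8 belongs to a dataset that the study chose for differences between vineyards at harvest in 2008 on these arrays, so this test is not independent evidence of them. It gave adjusted p-values of 0.0945 without replicate A and 0.0681 without replicate B.

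Whether the steps themselves differed between vineyards was tested as an interaction of vineyard and stage, a test added after the values had been seen. For EXPA1 the first step differed, over a range of 2.98 (adjusted p = 1.67e-10; 46% of all probe sets passed), and so did the second, over 1.74 (adjusted p = 0.00604; 34% passed). For EXPA8 the first step ranged over 0.27 without passing (adjusted p = 0.514), and the second ranged over 0.81 (adjusted p = 0.0153). That EXPA8 test uses the harvest arrays of 2008 on which the study chose the gene for differences between vineyards, so it is not independent evidence either. The second-step tests did not pass without replicate A (adjusted p = 0.211 for EXPA1 and 0.386 for EXPA8) or without replicate B (0.110 and 0.303), and that of EXPA8 gave 0.0518 with the slide as a random block.

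No difference between the macro-areas passed the test for either gene. Averaged over the 3 stages of 2008, EXPA8 had 14.98 ± 0.18 in Bardolino (SD, n = 4 vineyards), 15.12 ± 0.03 in Soave (n = 3) and 15.02 ± 0.05 in Valpolicella (n = 4). EXPA1 had 11.86 ± 0.40 in Bardolino, 12.02 ± 0.37 in Soave and 12.01 ± 0.24 in Valpolicella, with the same numbers of vineyards. The adjusted p was 0.859 for EXPA8 and 0.939 for EXPA1 (limma F test). In that test 0% of the 29542 probe sets passed, while 2467 had an unadjusted p under 0.05.

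The years were compared in AM, CS, MN and PSP. Both genes belong to a dataset that the study chose for a difference between years at veraison on these very arrays, so the veraison values of the 3 years are given as a description without a test. EXPA1 was lower at veraison of 2007 than at veraison of 2006 or 2008 in each of the 4 vineyards. In AM it had 13.66 ± 0.09 in 2006, 11.52 ± 0.11 in 2007 and 12.70 ± 0.48 in 2008 (SD, n = 3 each). In CS it had 13.19 ± 0.11 in 2006, 10.10 ± 0.53 in 2007 and 12.44 ± 0.32 in 2008. In PSP it had 13.61 ± 0.17 in 2006, 10.03 ± 0.12 in 2007 and 12.25 ± 0.04 in 2008. Thus the 2007 arrays were the lowest in each, and the 2006 arrays tended to be the highest. In MN it had 12.65 ± 0.17 in 2006, 7.93 ± 0.24 in 2007 and 11.60 ± 0.34 in 2008. The mean difference of 2007 from 2006 was -3.39 ± 1.08 (SD over 4 vineyards, 10.5-fold), and from 2008 it was -2.35 ± 1.02 (5.10-fold). The 2008 levels were below those of 2006 as well, by a mean of -1.04 ± 0.25.

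EXPA8 was lower at veraison of 2007 in each vineyard too, but far lower in MN and slightly lower in the other 3. In MN it had 15.23 ± 0.03 in 2006, 11.68 ± 0.46 in 2007 and 15.28 ± 0.21 in 2008. In AM it had 15.10 ± 0.22, 14.97 ± 0.08 and 15.19 ± 0.16 in the same 3 years, in CS 15.08 ± 0.07, 14.79 ± 0.08 and 15.33 ± 0.05, and in PSP 15.04 ± 0.07, 14.79 ± 0.03 and 15.23 ± 0.09. Outside MN the 2007 level was 0.13 to 0.28 below that of 2006 and 0.22 to 0.54 below that of 2008, on the log2 scale. By the array labels, 1 slide held PSP at veraison of both 2006 and 2007. Within it EXPA1 had 10.03 in the 3 arrays of 2007 against 13.61 in the 3 of 2006. EXPA8 had 14.79 in 2007 against 15.04 in 2006.

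**Figure D3:**
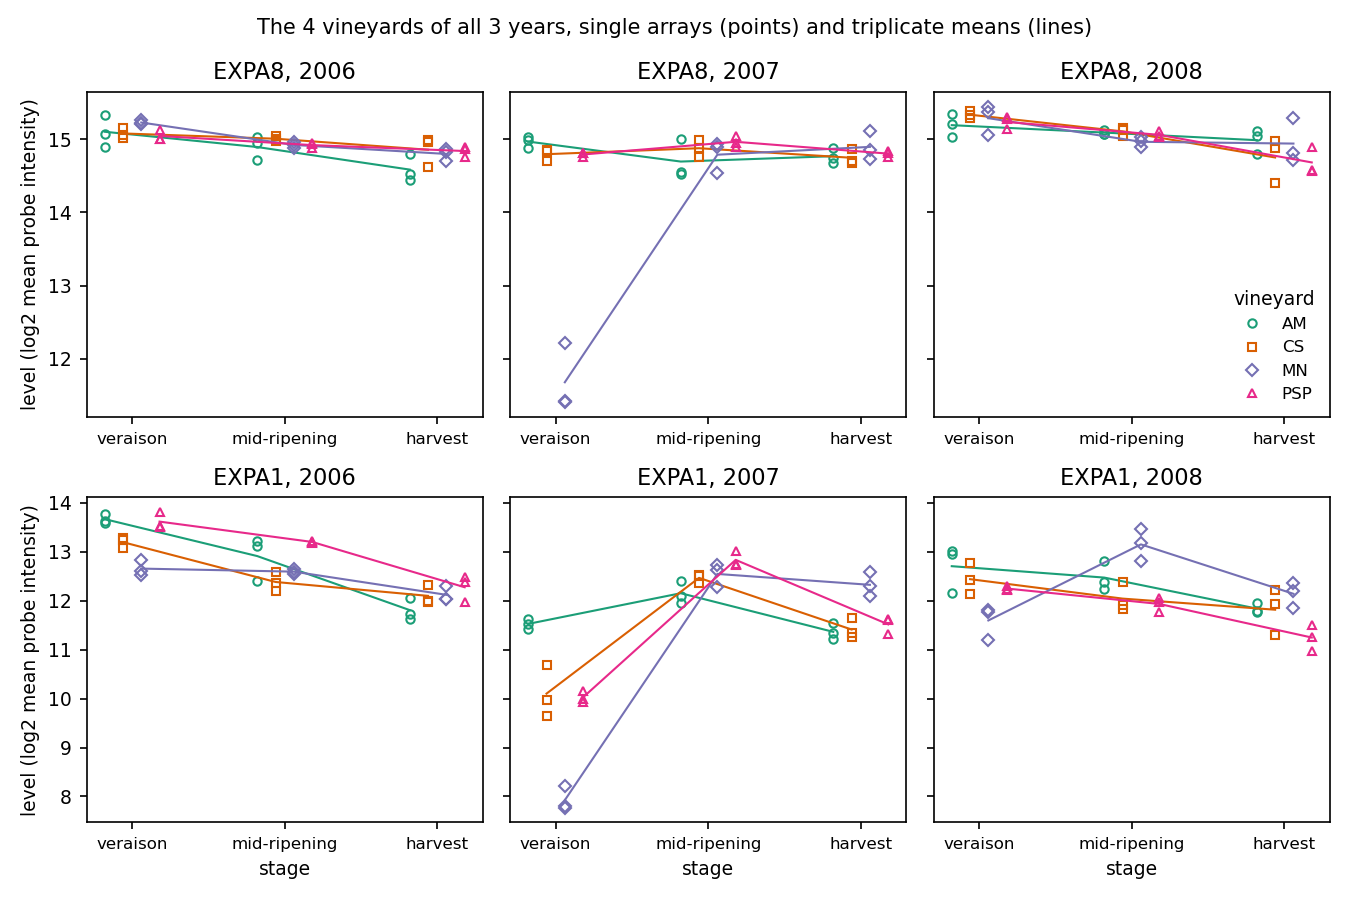
Levels of EXPA8 and EXPA1 (y axis, log2 of mean probe intensity) in single arrays of AM, CS, MN and PSP at veraison, mid-ripening and harvest of 2006, 2007 and 2008. Each point is 1 array, 3 per combination. The 3 MN arrays of 2007 veraison lie at 11.41 to 12.21 for EXPA8 and 7.77 to 8.20 for EXPA1, below all other arrays of the same gene in these vineyards.

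The first step of EXPA1 therefore ran in opposite directions in the 2 earlier years. From veraison to mid-ripening of 2006 the step was -0.75 in AM, -0.81 in CS, -0.06 in MN and -0.41 in PSP. In 2007 it was +0.63 in AM, +2.36 in CS, +4.62 in MN and +2.81 in PSP. In 4 of 4 vineyards of 2007 every mid-ripening array was above every veraison array, whereas in 3 of 4 vineyards of 2006 every mid-ripening array was below. EXPA8 had steps of -0.27 in AM, +0.08 in CS, +3.11 in MN and +0.17 in PSP in 2007, and of -0.21, -0.07, -0.31 and -0.12 in the same vineyards in 2006. These steps contain the veraison values and were not tested.

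At mid-ripening no difference between years passed the test for either gene. EXPA1 had 12.91 in AM, 12.38 in CS, 12.59 in MN and 13.20 in PSP in 2006, then 12.15, 12.46, 12.54 and 12.83 in 2007, and 12.47, 12.04, 13.15 and 11.93 in 2008. EXPA8 had 14.89, 15.00, 14.92 and 14.92 in these vineyards in 2006, 14.69, 14.87, 14.79 and 14.96 in 2007, and 15.09, 15.10, 14.96 and 15.06 in 2008. EXPA8 was highest in 2008 in 4 of 4 vineyards, whereas the order of the years for EXPA1 changed from vineyard to vineyard. For 2007 minus 2006 the differences were -0.10 ± 0.13 (SE) for EXPA8 and -0.27 ± 0.28 for EXPA1 (adjusted p = 0.662 and 0.584; 2.26% of all probe sets passed). For 2007 minus 2008 they were -0.22 ± 0.13 for EXPA8 and 0.10 ± 0.28 for EXPA1 (adjusted p = 0.360 and 0.862; 0.0406% passed). For 2008 minus 2006 they were 0.12 ± 0.13 and -0.37 ± 0.28 (adjusted p = 1.000 and 0.972; 0.00339% passed).

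At harvest neither gene passed a test between years. EXPA1 had 11.81 in AM, 12.10 in CS, 12.12 in MN and 12.27 in PSP in 2006, then 11.36, 11.41, 12.32 and 11.52 in 2007, and 11.84, 11.81, 12.14 and 11.25 in 2008. EXPA8 had 14.58, 14.85, 14.80 and 14.84 in 2006, 14.77, 14.74, 14.89 and 14.80 in 2007, and 14.98, 14.75, 14.94 and 14.68 in 2008. MN, lowest for both genes at veraison of 2007, was thus the highest of the 4 vineyards for both at harvest of that year. For 2007 minus 2006 the differences were 0.03 ± 0.15 for EXPA8 and -0.42 ± 0.22 for EXPA1 (adjusted p = 0.922 and 0.362; 0.00339% of all probe sets passed). For 2007 minus 2008 they were -0.04 ± 0.15 and -0.11 ± 0.22 (adjusted p = 0.893 and 0.781; 7.52% passed). For 2008 minus 2006 they were 0.07 ± 0.15 and -0.31 ± 0.22 (adjusted p = 0.972 and 0.808), where 0% of probe sets passed and 2316 had an unadjusted p under 0.05 in limma.

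EXPA1 was lower at harvest than at mid-ripening in every year. In the same 4 vineyards its step from mid-ripening to harvest was -0.70 ± 0.18 (SE) in 2006, -0.85 ± 0.18 in 2007 and -0.64 ± 0.18 in 2008, and harvest was lower in 4 of 4 vineyards each time. The step passed the test in 2007 (adjusted p = 0.0101; 16.5% of all probe sets passed, 7.86% downwards) and in 2008 (adjusted p = 0.0228; 27% passed, 13.5% downwards) but not in 2006 (adjusted p = 0.0568; 4.02% passed). For EXPA8 the step was -0.17 ± 0.09, -0.03 ± 0.09 and -0.22 ± 0.09 in 2006, 2007 and 2008, and none of them passed (adjusted p = 0.358, 0.866 and 0.102). The 2007 step differed from the mean of the other years by 0.16 ± 0.11 for EXPA8 (adjusted p = 0.493) and by -0.18 ± 0.23 for EXPA1 (adjusted p = 0.727; 0.352% of all probe sets passed). Without CS or PSP the EXPA1 step of 2007 had an adjusted p of 0.0513 or 0.0906, and the 2008 step had 0.0679 without AM, 0.0821 without MN, 0.0774 without PSP and 0.0814 without replicate C. Without replicate A, the EXPA1 step of 2006 (-0.78, adjusted p = 0.0459) and the EXPA8 step of 2008 (-0.28, adjusted p = 0.0370) passed.

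The MN berries of 2007 veraison stood apart from all other combinations. In the printed sheet that holds both genes, the column that matched these arrays stands under the PSP header. The same holds in the sheets of 45 and 168 genes of that dataset. Which vineyard the low values came from thus rests on the labels of the arrays. No test between years used a veraison array. EXPA8 had 12.21, 11.42 and 11.41 in their arrays, 11.7-fold below MN at veraison of 2006, 12.2-fold below MN at veraison of 2008, and 8.61-fold below MN at mid-ripening of 2007. EXPA1 had 8.20, 7.80 and 7.77, which was 26.5-fold, 12.7-fold and 24.6-fold below the same 3 combinations. All 4 probes of each gene were lowest there, so the low values did not rest on a single probe. These arrays still showed both genes above the random probes. Other ripening genes were low in the same arrays. The grip22 gene (VIT_06s0004g02560), a kiwellin known as a ripening-induced berry transcript, had 6.78 ± 1.03 there and 11.28 to 15.07 in the other 56 combinations, and VvMYBA1 (VIT_02s0033g00440), the regulator of anthocyanin synthesis in berry skin, had 4.95 ± 0.17 there and 8.22 to 11.91 elsewhere. VvMYBA1 was above the random probes in 0 of these 3 arrays and grip22 in 2 of 3, so the first value is at background. Of the seed markers, 2 of 3 listed genes had a probe set. Steroleosin (VIT_18s0157g00200), an oil-body protein, stood at 11.44 there, rank 55 of 57 from the lowest, and a globulin-like storage protein (VIT_12s0034g01900) at 10.72, rank 10. The part of these in the low expansin levels was not tested. Both ripening genes were above the random probes in most arrays (170 of 171 for grip22 and 163 of 171 for VvMYBA1), and both seed markers were above them in 171 of 171. In the median array 74.2% of all probe sets lay above the same percentile (49.4% to 97.0% over the arrays).

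Over all 57 combinations EXPA8 ran from 11.68 to 15.41 with a median of 14.97, and the second lowest, GIV at harvest of 2008, was at 14.26. When the 57 were placed in order, 2 of 56 neighbouring pairs lay apart by more than the larger SD of the pair, namely those above MN at 2007 veraison and above CS at 2008 veraison. EXPA1 ran from 7.93 to 13.66 with a median of 12.10, and the second lowest, PSP at 2007 veraison, was at 10.03. In its order 3 of 56 neighbouring pairs lay apart by that measure, those above MN at 2007 veraison, GIV at 2008 harvest and PSP at 2006 mid-ripening. The highest EXPA1 levels were those of 2006 veraison in AM (13.66 ± 0.09) and PSP (13.61 ± 0.17), while the highest EXPA8 levels were those of 2008 veraison in BA (15.41 ± 0.06) and CS (15.33 ± 0.05). GIV at 2008 harvest was low for both genes.

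The 2 genes correlated at r = 0.67 over the 57 means, at 0.42 without MN at 2007 veraison and at 0.55 over the 33 means of 2008. These are descriptions over points that share vineyards and a common normalization.

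**Figure D4:**
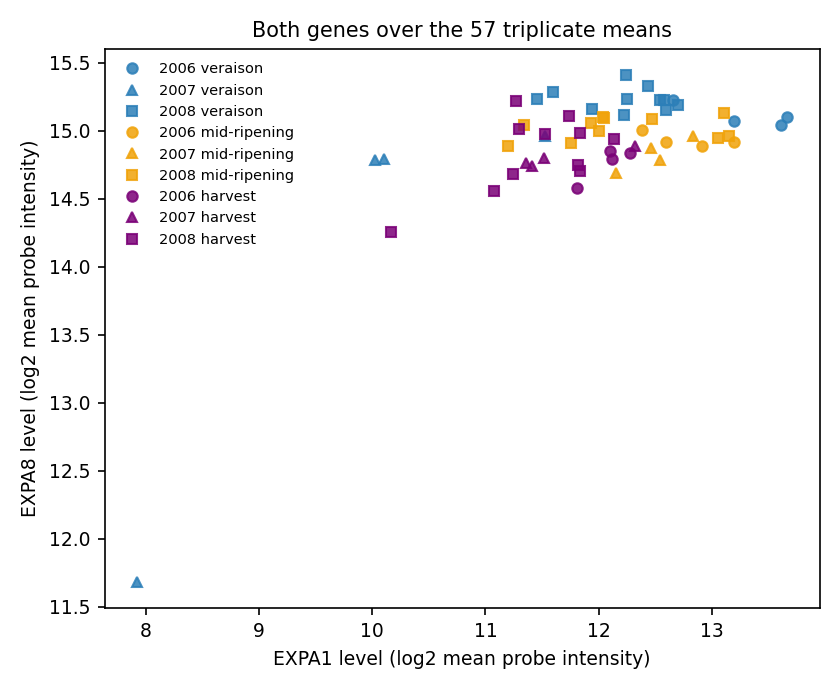
EXPA8 level (y axis) against EXPA1 level (x axis), both log2 of mean probe intensity, in the 57 combinations of vineyard, stage and year. Each point is a mean of 3 arrays, and symbols and colours give stage and year. MN at 2007 veraison lies alone at 11.68 for EXPA8 and 7.93 for EXPA1. The other 3 combinations of 2007 veraison have EXPA8 levels of 14.79 to 14.97 with EXPA1 levels of 10.03 to 11.52.

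Of the genes that could be identified on the arrays, those with the pattern most like that of EXPA8 over the 57 means were xyloglucan endotransglucosylase/hydrolase 32 (VIT_06s0061g00550, r = 0.91), an enzyme that cuts and rejoins wall xyloglucan, a thaumatin annotated SCUTL2 (VIT_18s0001g11930, 0.87), VIT_10s0116g01340 without a description (0.85), the calcium-sensor-regulated kinase CIPK20 (VIT_10s0003g01410, 0.81) and grip22 (0.78). Another 25 probe sets without an identified gene ranked above the last of them. This likeness rested in large part on 1 combination, for without MN at 2007 veraison the values were 0.44, 0.34, 0.28, 0.63 and 0.19, and 0 of the 5 stayed among the first 5. For EXPA1 the closest were VIT_00s0371g00050 without a description (r = 0.80), Expansin A4 (VIT_05s0077g00220, 0.78), VIT_09s0002g03690 without a description (0.72), grip22 (0.72) and an esterase/lipase/thioesterase (VIT_07s0130g00340, 0.71), with 17 unidentified probe sets above the last of them. Without MN at 2007 veraison they had 0.71, 0.78, 0.57, 0.52 and 0.55, and 2 of the 5 stayed among the first 5. Expansin A4 was thus as like EXPA1 without that combination as with it.

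The other expansins of the supplementary datasets gave a wider picture of the family. Of 8 listed, 7 could be matched to probe sets, and the unmatched one was an alpha-expansin 6. These datasets were chosen by the study on the same arrays, so the counts are not independent evidence of a direction. From veraison to mid-ripening of 2008, 3 of 7 rose and 2 of 7 fell (23.4% and 23.5% of all probe sets), with a median step of 0.22 over the 7 against -0.02 over all probe sets. The risers were both genes annotated EXPR3 (VIT_04s0008g04600 at 1.11 ± 0.15, SE, adjusted p = 2.95e-06, and VIT_04s0008g04620 at 0.78 ± 0.06, adjusted p = 2.52e-09), which have neighbouring identifiers and whose cross-hybridisation was not checked, and an alpha-expansin 6 precursor (VIT_04s0008g00930) at 0.37 ± 0.15 (adjusted p = 0.0471). The genes that fell were alpha-expansin 3 (VIT_17s0000g06360) at -1.08 ± 0.16 (adjusted p = 8.04e-06) and an alpha-expansin 10 precursor (VIT_06s0004g00070) at -3.02 ± 0.33 (adjusted p = 1.43e-07).

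From mid-ripening to harvest 1 of 7 rose and 3 of 7 fell (18.7% and 18.1% of all probe sets), with a median step of -0.25 over the 7 against 0.01 over all probe sets. The EXPR3 gene VIT_04s0008g04600 rose again by 0.46 ± 0.15 (adjusted p = 0.0211). Expansin A4 fell by 0.69 ± 0.20 (adjusted p = 0.00866), beside 0.74 for EXPA1. Expansin A4 was above the random probes in 31 of 33 arrays of 2008 mid-ripening and 28 of 33 of harvest, so some of its harvest values are at background. Both genes annotated alpha-expansin 10 precursor fell as well, VIT_06s0004g07970 by 0.81 ± 0.25 (adjusted p = 0.0124) and VIT_06s0004g00070. VIT_06s0004g07970 was above the random probes in 30 of 33 arrays of 2008 veraison, 31 of 33 of mid-ripening and 23 of 33 of harvest, so part of its harvest values are at background. VIT_06s0004g00070 was above the random probes in all 33 arrays of 2008 veraison and in all 33 of mid-ripening but in only 2 of 33 at harvest, so its harvest level is a bound, at least 4.02-fold below mid-ripening and at least 32.7-fold below veraison. Holding it at that bound leaves the median of the 7 where it was. From veraison to harvest 2 of 7 rose and 3 of 7 fell (29.2% and 28.2% of all probe sets), with a median of -0.47, and alpha-expansin 3 fell by 1.34 ± 0.16 (adjusted p = 2.01e-07).

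**Figure D5:**
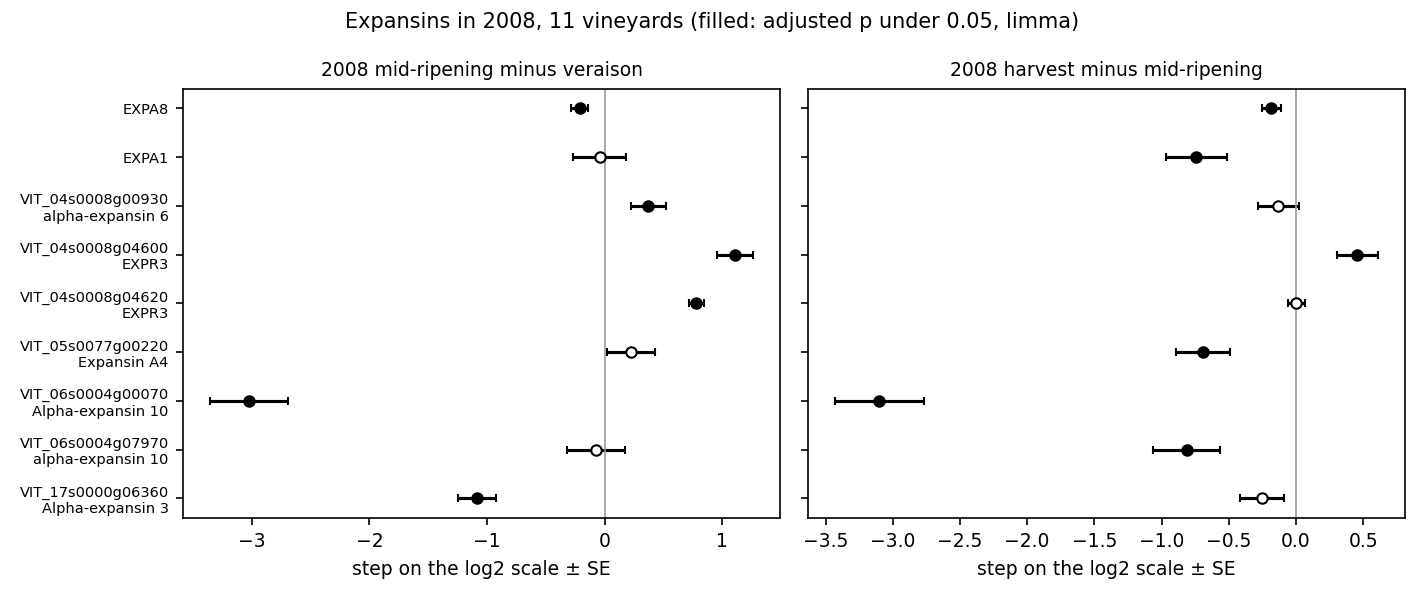
Change of level (log2) from veraison to mid-ripening and from mid-ripening to harvest of 2008 for EXPA8, EXPA1 and the 7 other expansins with a probe set. Points are limma estimates over 11 vineyards, bars are SE, and filled points have an adjusted p under 0.05. The first steps of EXPA8 (-0.21) and EXPA1 (-0.04) lie between those of the 3 genes that rose and those of the other 2 that fell.

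At MN in 2007 veraison Expansin A4 (7.00) and alpha-expansin 3 (10.73) were also at their lowest of the 57 combinations, and the alpha-expansin 10 precursor VIT_06s0004g00070 had 5.78 there, above the random probes in 0 of 3 arrays, against 11.27 to 12.69 in the other 2007 veraison means. The EXPR3 gene VIT_04s0008g04620 had 10.89 and the alpha-expansin 6 precursor 12.27, among the higher values of their own range. The other EXPR3 gene, VIT_04s0008g04600, had 9.59, rank 16 of 57 from the lowest. The alpha-expansin 10 precursor VIT_06s0004g07970 had 6.42, rank 4 of 57, but the other 2007 veraison means were no higher, at 6.04 to 6.42. The low values in these arrays were thus shared by several but not all expansins. How many of all probe sets were low there was not counted, so this cannot be called a trait of expansins. Of the contrasts between years, alpha-expansin 3 passed at harvest, at -0.93 ± 0.23 for 2007 minus 2008 (adjusted p = 0.0444; 3.4% of all probe sets passed downwards), and no other of the 7 passed a limma contrast at mid-ripening or harvest.

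Other cell wall genes of the same datasets (xyloglucan endotransglucosylases, pectinesterases, polygalacturonases, a pectate lyase, cellulose synthases and a beta-galactosidase) were counted beside the expansins, with the same reservation about how they were chosen. Of 36 with a probe set, 11 rose and 7 fell from veraison to mid-ripening of 2008, with a median of 0.11. From mid-ripening to harvest 4 rose and 8 fell, with a median of -0.25, and from veraison to harvest 13 rose and 11 fell, with a median of -0.07. The share passing was thus 18 of 36, 12 of 36 and 24 of 36, set beside 47%, 36.8% and 57.3% of all probe sets.

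Stage, vineyard and year were not spread evenly over the 19 slides that held the arrays. Within slides EXPA8 averaged -0.22 from veraison to mid-ripening of 2008 (lower in 10 of 10 vineyards that allowed it) and -0.18 from mid-ripening to harvest (lower in 8 of 9). EXPA1 averaged 0.10 at the first step within slides (lower in 6 of 10) and -0.80 at the second (lower in 9 of 9). The years 2007 and 2008 shared no slide, so for these the slide and the year cannot be told apart.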

How the data were processed

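Total RNA of berry pericarp was labelled with Cy3 and hybridised to NimbleGen grapevine arrays. The authors deposited linear probe intensities, quantile normalized over all 171 arrays, and their processing notes name RMA without further settings. The tables hold 117999 gene probes, 19605 random-sequence probes and 1759 blank features, with intensities between 9.16 and 63131.31. Their number, 3 arrays per combination and 4 probes per gene, limits the precision. Arrays were assigned to vineyard, stage and year from the sample characteristics. In 3 samples the title or description differs from these (1 of them is BM at mid-ripening of 2008, replicate B), and the characteristics were used.

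Probe sets were rebuilt from consecutive probe numbers (29542 sets, 85 of them with under 4 probes). A set was given a gene when its values correlated at r of at least 0.95 (0.99 where 12 values were printed) with those printed for that gene in the supplementary datasets, and led the next set by at least 0.01. In this way 5322 genes were named, with 0 conflicts. Only the profiles of those datasets served for matching. In 3 sheets of the year dataset 2 or 3 columns were matched under another header than printed. In the sheet of genes that the study called plastic, 30 of 33 columns were matched under the name of another vineyard. The median best r of that sheet was 0.66 as headed and 0.9957 after this reordering, and 1030 of its 1050 genes were matched. The grip22 gene was identified from that sheet alone, so its identity rests on the reordering. For the levels, intensities were averaged over the probes of a set and then taken to log2.

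Stage steps of 2008 were fitted with limma 3.58.1 in R 4.3.3 on means of 3 arrays with vineyard as a term. Year contrasts were fitted on AM, CS, MN and PSP per stage with vineyard as a term, and the late step with each vineyard and year as a block. Vineyards were compared by F tests on single arrays and macro-areas on vineyard means. All limma p-values were adjusted by Benjamini-Hochberg over the probe sets tested (29542 in the main fits), and an adjusted p under 0.05 is called passing. The permutation p-values are unadjusted, and the analysis of variance used a Bonferroni adjustment. Unequal change was tested by exact sign flips in Python 3.11.15. The fits were tested on simulated data. Named genes were both members, every matched gene described as an expansin, and for each member the 5 identified genes with the highest Pearson r over the 57 means, and the listed markers of ripening pericarp and of seed with a probe set. Other cell wall genes were counted only. Alternatives were median polish and the median of the probes, single probes, another quantile normalization, 50 added before the log, a filter on low values, replicate and slide blocks, the 7 vineyards of 2008 alone, an analysis of variance, a Kruskal-Wallis test and leaving out vineyards or replicates. The members and lists were chosen with earlier results of these data known. Genome coordinates and sequences were not used here.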

Additional observations from a re-analysis of the deposited data

Results flagged for a closer look

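In 2007 veraison the MN vineyard lay far from the other 3 of its year for EXPA8, at 11.68 where the nearest had 14.79, and this gap filled 0.946 of the range of the group. Its EXPA8 step from veraison to mid-ripening was likewise apart, at 3.11 on the log2 scale where the nearest vineyard had 0.17 (0.868 of the range). At harvest of 2007 the same vineyard was the far one for EXPA1 on the high side, at 12.32 where the nearest had 11.52 (0.840 of the range). These are 3 of 32 groups that were examined for a far sample, and chance marks about 1 in 20 groups. The first 2 share the same MN arrays of veraison, assigned to MN by their labels. The study chose the gene for a difference between years on the veraison arrays, so the chance rate cannot judge these 2. The harvest flag of EXPA1, left alone among the 32 groups, is no more than that rate gives.

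Effects differed between groups in the following cases. The step of EXPA1 from veraison to mid-ripening of 2008 differed between vineyards, over a range of 2.98 (limma interaction test, adjusted p = 1.67e-10). From mid-ripening to harvest the steps differed over a range of 1.74 for EXPA1 (adjusted p = 0.00604) and 0.81 for EXPA8 (adjusted p = 0.0153). The EXPA8 value uses the harvest arrays on which the study chose the gene and is not independent evidence. Neither passed without replicate A (0.211 for EXPA1 and 0.386 for EXPA8) or replicate B (0.110 and 0.303), and EXPA8 had 0.0518 with the slide as a random block. Between years, the 2007 step of EXPA1 from veraison to mid-ripening exceeded that of 2006 by 3.12 on average, being upward in 4 of 4 vineyards in 2007 and downward in 4 of 4 in 2006. This difference was not tested, since its veraison values chose the gene.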

How the results depend on the processing

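Of 778 alternative values, 688 kept direction and side of the threshold, 35 turned in sign, 42 no longer passed and 13 newly passed; the cause was not tested.

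Stage steps of 2008. EXPA8 from veraison to mid-ripening did not pass from probe 3 alone (-0.11) or over the 7 vineyards of 2008 alone (-0.22), and left-out vineyards or letters gave -0.23 to -0.20. EXPA8 from mid-ripening to harvest did not pass with median polish (-0.19), the probe median (-0.18), quantile normalized gene values (-0.18), single probes (-0.20, -0.20, -0.17 and -0.20) or the 7 vineyards (-0.17), nor without VM, BM, GIV, MN, CS, PSP, BA, AM, replicate B or replicate C, with left-out values of -0.22 to -0.14. EXPA1 from veraison to mid-ripening, which had not passed, turned in sign with median polish (0.0253), the probe median (0.0205), probe 2 (0.0751), probe 4 (0.16) and within slides (0.10), and ranged from -0.21 to 0.0915 in the left-out values. Its step to harvest did not pass over the 7 vineyards (-0.80).

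Years. Signs turned for differences that had not passed. These were EXPA1 at mid-ripening, 2007 minus 2008 (probe 2 -0.17; left out -0.17 to 0.33); EXPA8 at mid-ripening, 2008 minus 2006 (probe 4 -0.0057); EXPA8 at harvest, 2007 minus 2006 (left out -0.0674 to 0.12), 2007 minus 2008 (probe 4 0.0597; left out -0.0892 to 0.0591) and 2008 minus 2006 (probe 4 -0.0257; left out -0.0400 to 0.15); and EXPA1 at harvest, 2007 minus 2008 (median polish 0.10, probe median 0.0557, probe 1 0.40, probe 4 0.64; left out -0.23 to 0.0159).

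Late step in AM, CS, MN and PSP. EXPA1 passed in 2006 with median polish (-0.89), 50 added (-0.69), a filter on low values (-0.70), and slide as a random block (-0.63), and left-out values were -0.83 to -0.56. In 2007 it did not pass from probe 4 (-1.12; left out -1.05 to -0.69), and in 2008 from probe 2 (-0.41) or probe 3 (-0.56; left out -0.78 to -0.52). EXPA8 in 2007 turned in sign with median polish (0.0010) and probe 3 (0.0293; left out -0.0778 to 0.0255), and in 2008 it passed with slide as a random block (-0.19; left out -0.28 to -0.16). The 2007 step of EXPA1 minus the others turned with probe 4 (0.23; left out -0.41 to 0.0290).

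Vineyards. EXPA1 at veraison did not pass from probe 2 (range 1.48; left out 0.91 to 1.57), EXPA1 at harvest had left-out ranges of 1.53 to 2.35 and EXPA8 at harvest of 0.81 to 1.13, and EXPA8 at mid-ripening passed from probe 1 (0.66) and probe 4 (0.61). The steps to harvest ranged over 1.40 to 2.14 for EXPA1 and 0.61 to 1.04 for EXPA8 with a letter left out, and EXPA8 did not pass with slide as a random block (0.81, adjusted p = 0.0518). A Kruskal-Wallis permutation test of vineyards over all stages did not pass (p = 0.889 for EXPA1 and 0.928 for EXPA8). With the stages as replicates, it cannot judge vineyard differences at a stage. The difference of the first steps of EXPA8 and EXPA1 was -0.29 to 0.0016 with a vineyard or letter left out.

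Replicate letters did not pair the samples. Deviations of same-letter samples from their group means had a median r of 0.03 over 99 pairs of stages and 0.01 over 108 pairs of years. With the letter as a replicate block, calls were gained for EXPA8 at mid-ripening, 2007 minus 2008 (-0.22), EXPA1 at harvest, 2007 minus 2006 (-0.42), the late step of EXPA1 in 2006 (-0.70) and that of EXPA8 in 2008 (-0.22). No other call of these genes changed with it.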
